A study of Homo sapiens with 8 samples.

Results

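Type IV collagen is the network-forming collagen of basement membranes, and the genes described here encode its most widely expressed chains, COL4A1 and COL4A2, together with enzymes and a chaperone that act on collagen chains in the endoplasmic reticulum. The members were chosen by symbol: COL4A1, COL4A2, P4HA1, P4HA2, P4HB, PLOD1, PLOD2, PLOD3 and SERPINH1, 9 genes in all. The choice followed the change with VRK1 knockdown in each cell line, in which P4HA1 differed in sign between the lines. It also named the comparison of the control-treated lines, so the members' p-values there are not independent support. Changes with knockdown are given for the members as descriptions. Their calls in the fit over all genes are counted only beside the share of all genes called, and nothing is read from them. Of the 9 members, 8 had a probe in the annotation used, out of 16922 genes with a named probe, and all 8 were among the 9451 genes tested. P4HB was not analysed here.

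The arrays measured total RNA of cultured human cells in 4 groups of 2 arrays each. MDA-MB-231 is a breast adenocarcinoma line and HT1080 a fibrosarcoma line. Cells of each line were transfected with scrambled siRNA (control) or with siVRK1 #308, which targets VRK1, a nuclear serine/threonine kinase. All groups shared the transfection reagent, the medium with 10% serum, 24 h of culture before siRNA and 42 h after it. A single siRNA sequence was used, so loss of VRK1 and any other effect of that sequence cannot be told apart, and each line stands for 1 cell line only, so line and tumour type cannot be told apart either. The labels do not say whether the arrays of a group came from separate cultures, so the p-values cover only the spread among these arrays, which could be technical.

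VRK1 itself read 7.93 and 7.61 on the log2 scale in control MDA-MB-231 and 6.23 and 6.74 with siVRK1, and it read 7.84 and 7.88 in control HT1080 and 6.57 and 6.51 with siVRK1. It fell by 1.28 (SE 0.17, adjusted p = 0.0117, limma) in MDA-MB-231 and fell by 1.32 (SE 0.17, adjusted p = 0.0240, limma) in HT1080. Without HT1080 control array 1 or 2, the adjusted p of the MDA-MB-231 change was 0.0518 or 0.0513 (limma), and that of the HT1080 change lay between 0.269 and 0.337 when any 1 HT1080 array was left out. Replicate arrays correlated at r = 0.991 to 0.995 across probes, and the SD of the difference between replicates was widest in control MDA-MB-231, at 0.269 log2. Of the markers that separate the lines, keratin 19 (KRT19) read 10.7 to 11.2 in MDA-MB-231 and 5.63 to 5.80 in HT1080, and N-cadherin (CDH2) read 6.11 to 6.29 and 10.7 to 10.9. Keratin 18 (KRT18) did not separate them, at 7.29 to 7.66 and 7.31 to 7.51 on its brighter probe. The epithelial markers CDH1 and EPCAM read at most 6.17 in either line, at or near background, and of the mesenchymal markers VIM read 11.39 to 12.13 and CD44 up to 13.1, while FN1 was below the filter level. Of 3 endothelial markers, CDH5 and VWF were below the filter level and PECAM1 read 6.16 to 6.66. Of 3 leukocyte markers, PTPRC was below it, while CD68 read up to 10.02 and LAPTM5 up to 8.49. Of 3 markers of tissue fibroblasts, DCN and LUM were below it. PDGFRB read 6.61 to 7.18 in MDA-MB-231 and 5.95 to 6.18 in HT1080, so it was lower in the fibrosarcoma line. The summed level of the epithelial list, of which 5 of 6 markers were kept, was 11.8 to 11.9 in control and 11.9 to 12.1 in siVRK1-treated MDA-MB-231. That of the leukocyte list, of which 2 of 3 were kept, was 10.1 in both control arrays and 9.75 and 9.82 with siVRK1. In HT1080 the epithelial sums were 9.42 in both control arrays and 9.34 and 9.38 with siVRK1. The leukocyte sums there were 10.71 and 10.96 in control and 10.82 in both siVRK1 arrays. The part of these marker lists in the member changes was not tested. A culture is a bulk sample, so fewer cells expressing a gene and less RNA per cell cannot be told apart.

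Collagen IV is assembled as a triple helix, most often from chains of COL4A1 and COL4A2, whose genes lie head to head and are transcribed in opposite directions from a shared intergenic region. Prolyl 4-hydroxylase is a tetramer in which P4HA1 or P4HA2 is the catalytic subunit and P4HB, protein disulfide isomerase, is its partner. The hydroxyproline it makes stabilises the helix. The lysyl hydroxylases PLOD1, PLOD2 and PLOD3 make hydroxylysine, on which crosslinks and sugars are built, and SERPINH1, known as HSP47, is a collagen-specific chaperone. Collagen IV is deposited into basement membranes that carcinoma cells cross during invasion, and P4HA1, P4HA2, PLOD1 and PLOD2 are known hypoxia-inducible genes.

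The intergenic region between COL4A1 and COL4A2 is shown because the pair shares it while the genes' arrays did not move together in MDA-MB-231. COL4A2 read close to the filter level in that line, which limits the change it could show. The region spans chr13:110307158-110307283 in GRCh38.p14 (RefSeq), read on the plus strand, 126 bases between the COL4A1 start at 110307157 on the minus strand and the COL4A2 start at 110307284 on the plus strand. The capitals mark the 1 match of CCAAT, the letters of a CCAAT box, searched on both strands.
COL4A1–COL4A2: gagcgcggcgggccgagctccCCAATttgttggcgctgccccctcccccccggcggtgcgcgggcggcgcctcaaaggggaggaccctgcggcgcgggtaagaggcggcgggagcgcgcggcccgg
Among 35116 windows of 300 bases around gene starts, longer than the 126 bases shown, 34.6% held CCAAT on at least 1 strand. The promoters of P4HA1 and P4HA2 are shown because these 2 subunits of the same enzyme read differently in both comparisons. They are the 250 bases before each start, chr10:73096867-73097116 and chr5:132227092-132227341, both on the minus strand of GRCh38.p14 (RefSeq). Capitals mark ACGTG or GCGTG, the core letters of a hypoxia response element, which had 1 match in P4HA1 (on the reverse strand, so it is printed as CACGT) and 0 in P4HA2.
P4HA1: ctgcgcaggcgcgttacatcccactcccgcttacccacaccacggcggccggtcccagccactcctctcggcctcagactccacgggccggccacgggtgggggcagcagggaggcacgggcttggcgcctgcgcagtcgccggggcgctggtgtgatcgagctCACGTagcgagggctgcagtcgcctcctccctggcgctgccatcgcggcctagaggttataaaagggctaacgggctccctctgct
P4HA2: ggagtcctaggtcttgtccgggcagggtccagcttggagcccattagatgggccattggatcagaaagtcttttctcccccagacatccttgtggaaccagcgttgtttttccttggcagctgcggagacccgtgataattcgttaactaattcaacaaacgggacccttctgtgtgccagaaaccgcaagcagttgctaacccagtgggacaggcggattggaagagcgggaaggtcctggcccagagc
Of all 300-base windows, 48.4% held ACGTG or GCGTG on at least 1 strand, so a match was common in them. These windows are longer than the 250 bases shown, since they also hold 50 bases after the start. A match is a run of letters and not a measured binding site.

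**Figure D1:**
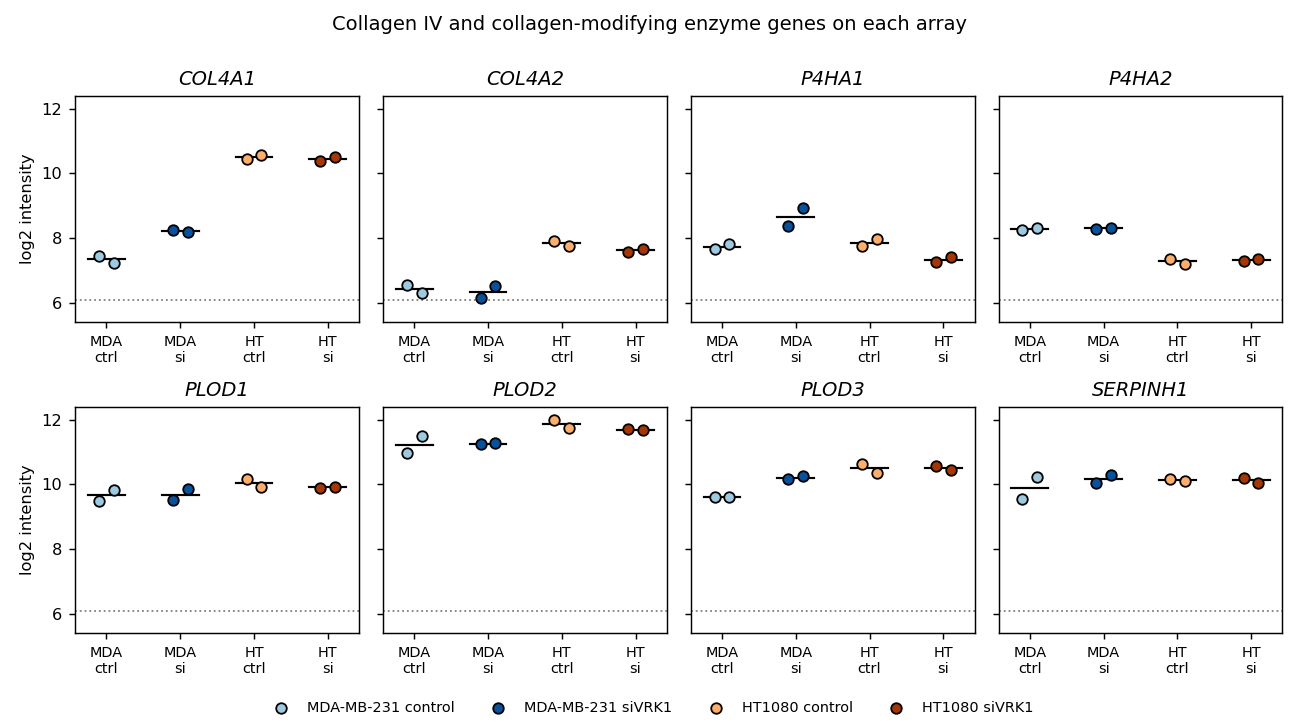
Log2 intensity of the probe used for each of the 8 measured genes on every array (vertical axis), by group (horizontal axis: MDA, MDA-MB-231; HT, HT1080; ctrl, scrambled siRNA; si, siVRK1). Circles are single arrays, horizontal bars are group means and the dotted line is the filter level of 6.08. COL4A1 spans 7.23 to 10.56, and P4HA1 has its highest pair of arrays in siVRK1-treated MDA-MB-231 and its lowest in siVRK1-treated HT1080.

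The collagen IV chains differed more between the lines than any other member, and of the pair only COL4A1 read higher on both siVRK1 arrays in MDA-MB-231. COL4A1 read 7.45 and 7.23 in control MDA-MB-231, 8.25 and 8.18 with siVRK1, 10.43 and 10.56 in control HT1080 and 10.39 and 10.49 with siVRK1. The groups did not overlap in MDA-MB-231 and did overlap in HT1080. With siVRK1, the difference from control was 0.88 (SE 0.12) in MDA-MB-231, 1.83-fold, and -0.05 (SE 0.12) in HT1080. Even so, the siVRK1 arrays of MDA-MB-231 lay below every HT1080 array, so the order of levels was control MDA-MB-231, siVRK1 MDA-MB-231, then both HT1080 groups, which did not differ beyond their spread.

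COL4A2 read 6.54 and 6.29 in control MDA-MB-231, 6.14 and 6.51 with siVRK1, 7.90 and 7.76 in control HT1080 and 7.58 and 7.67 with siVRK1. The MDA-MB-231 arrays lay close to the filter level of 6.08, which limits how far a fall or a rise could show, and they overlapped between treatments. In HT1080 both siVRK1 arrays were lower than both controls. The change with siVRK1 was -0.09 (SE 0.14) in MDA-MB-231 and -0.21 (SE 0.14) in HT1080. Thus the paired genes had changes of 0.88 and -0.09 in MDA-MB-231, measured on separate probes whose levels are not set against each other here.

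P4HA1, the catalytic subunit of prolyl 4-hydroxylase that is most widely expressed, was the member whose siVRK1 arrays lay apart from the controls in both lines, on opposite sides. It read 7.65 and 7.80 in control MDA-MB-231 and 8.37 and 8.92 with siVRK1, and it read 7.75 and 7.96 in control HT1080 and 7.25 and 7.41 with siVRK1. The siVRK1 arrays were both higher than the controls in MDA-MB-231 and both lower in HT1080, while the 2 control groups overlapped. The difference from control was 0.91 (SE 0.17), 1.88-fold higher, in MDA-MB-231. It was -0.53 (SE 0.17), 1.44-fold lower, in HT1080. The difference between the lines' changes, HT1080 minus MDA-MB-231, was -1.44 (SE 0.24). Across all genes, 472 of 9451, 4.99%, likewise had all arrays moving one way in one line and the opposite way in the other.

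The P4HA1 replicates spread most in siVRK1-treated MDA-MB-231 (SD 0.39, n = 2), and the difference in that line was 0.64 without replicate 2 and 1.19 without replicate 1. A further P4HA1 probe, designed on another transcript, read 5.68 to 5.88 on all arrays, below the filter level, with siVRK1 differences of -0.06 (MDA-MB-231) and -0.08 (HT1080). That transcript was therefore not measured above the filter level.

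P4HA2, the other catalytic subunit, read 8.26 and 8.30 in control MDA-MB-231, 8.28 and 8.32 with siVRK1, 7.35 and 7.21 in control HT1080 and 7.28 and 7.35 with siVRK1. All MDA-MB-231 arrays were higher than all HT1080 arrays, and treatments overlapped within each line. Differences with siVRK1 were 0.02 (SE 0.10) in MDA-MB-231 and 0.03 (SE 0.10) in HT1080. A second P4HA2 probe lay between 6.0 and 6.37, with siVRK1 differences of -0.12 and 0.03.

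PLOD3, a lysyl hydroxylase that also transfers sugars onto hydroxylysine, read 9.63 and 9.61 in control MDA-MB-231, 10.15 and 10.26 with siVRK1, 10.64 and 10.35 in control HT1080 and 10.57 and 10.45 with siVRK1. Both siVRK1 arrays were higher than both controls in MDA-MB-231, and the HT1080 groups overlapped. The resulting difference was 0.59 (SE 0.12), 1.5-fold, in MDA-MB-231 and 0.02 (SE 0.12) in HT1080.

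PLOD1, which hydroxylates lysines within the helix, read 9.50 and 9.82 in control MDA-MB-231, 9.52 and 9.86 with siVRK1, 10.17 and 9.92 in control HT1080 and 9.90 and 9.93 with siVRK1. Treatments overlapped in both lines. The siVRK1 difference was 0.02 (SE 0.15) in MDA-MB-231 and -0.13 (SE 0.15) in HT1080.

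PLOD2, which hydroxylates lysines of the telopeptides, read 10.96 and 11.50 in control MDA-MB-231, 11.24 and 11.29 with siVRK1, 11.999 and 11.73 in control HT1080 and 11.72 and 11.68 with siVRK1. The treatments overlapped in MDA-MB-231, and in HT1080 both siVRK1 arrays were lower, with 11.72 just under the lower control. The siVRK1 difference was 0.04 (SE 0.17) in MDA-MB-231 and -0.17 (SE 0.17) in HT1080. The other 2 PLOD2 probes had differences of 0.11 and 0.12 (MDA-MB-231) and of -0.35 and -0.20 (HT1080), so all 3 probes had the same sign in each line.

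SERPINH1 read 9.54 and 10.25 in control MDA-MB-231, 10.05 and 10.29 with siVRK1, 10.17 and 10.10 in control HT1080 and 10.21 and 10.05 with siVRK1. Every group overlapped the others, and control MDA-MB-231 had the widest pair, 9.54 and 10.25. The siVRK1 difference was 0.28 (SE 0.20) in MDA-MB-231 and -0.0041 in HT1080.

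**Figure D2:**
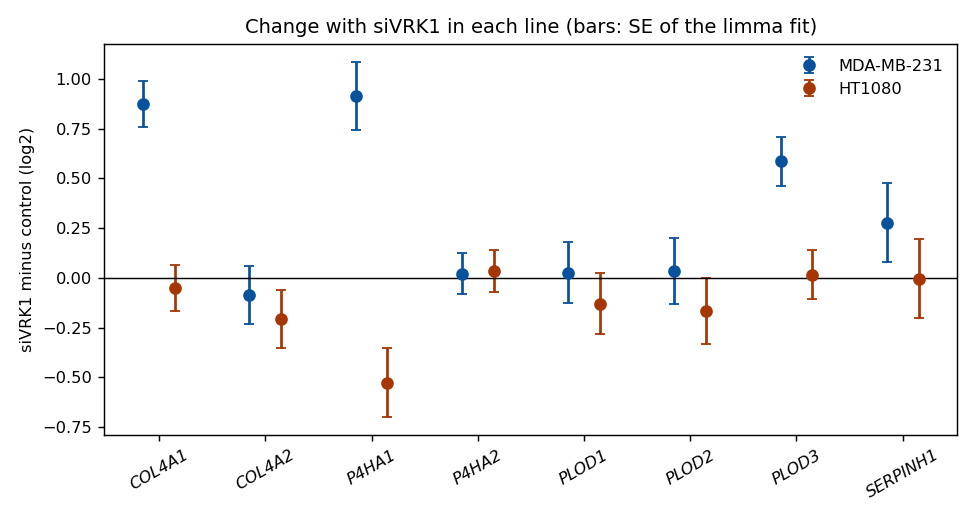
Difference in log2 intensity between siVRK1 and control (vertical axis) for each measured gene (horizontal axis), in MDA-MB-231 (blue) and HT1080 (orange). Points are differences of means of 2 arrays per group and bars are the SE of the limma fit. COL4A1, P4HA1 and PLOD3 stand at 0.88, 0.91 and 0.59 in MDA-MB-231, and P4HA1 at -0.53 in HT1080.

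Over the 8 measured members, 7 differences were above 0 and 1 below in MDA-MB-231, with a median of 0.16 beside 0.00 over all genes, and 2 were above and 6 below in HT1080, with a median of -0.09 beside 0.00. The call used across all genes was an adjusted p under 0.05. In MDA-MB-231, 2 members were called higher (COL4A1 and P4HA1) and none lower, where 0.995% of all genes were called and 0.476% were called higher. PLOD3 was the nearest member outside the call. In HT1080 no member was called, where 0.307% of genes were called, 0.0846% higher and 0.222% lower (29 genes; 981 genes had an unadjusted p under 0.05, limma). For the difference between the lines' changes 0% of genes were called (0 of 9451; 582 had an unadjusted p under 0.05, limma). COL4A1, P4HA1 and PLOD3 did not overlap between treatments in MDA-MB-231, where 20.4% of genes were higher on both siVRK1 arrays, and COL4A2, P4HA1 and PLOD2 did not overlap in HT1080, where 21.8% of genes were lower on both. No member was higher on both siVRK1 arrays in HT1080, where 23.2% of genes were. These counts follow the choice of the genes and are given as description. With 1 array left out at a time the count in MDA-MB-231 was 1, or 0 without HT1080 control array 1 or 2.

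The control-treated lines were then compared with each other, which uses the same control arrays as the knockdown comparisons. The choice of the members named this comparison too, so their p-values and calls in it are descriptions and not independent support. COL4A1 was 8.89-fold higher in HT1080 than in MDA-MB-231 (log2 difference 3.15, SE 0.12, 95% interval 2.89 to 3.41, adjusted p = 1.51e-08, limma). COL4A2 was 2.67-fold higher (1.42, SE 0.14, interval 1.10 to 1.74, adjusted p = 2.47e-05, limma). Both control arrays of HT1080 lay above both of MDA-MB-231 for each chain.

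Among the lysyl hydroxylases, PLOD3 was higher in HT1080 by 0.88 (SE 0.12, adjusted p = 0.000214, limma) and PLOD2 by 0.64 (SE 0.17, adjusted p = 0.00882, limma). The other PLOD2 probes were higher by 0.74 and 0.83. Without control MDA-MB-231 array 1 or control HT1080 array 1 the PLOD2 difference was 0.37 (adjusted p = 0.0557, limma) or 0.50 (adjusted p = 0.0840, limma), neither of them called. PLOD1 was 0.38 higher (SE 0.15, interval 0.04 to 0.73) and did not pass (adjusted p = 0.0576, limma), although both HT1080 control arrays were above both of MDA-MB-231. Without control MDA-MB-231 array 2 its difference was 0.54 and passed (adjusted p = 0.0244, limma), and it also passed without MDA-MB-231 siVRK1 array 1 or 2.

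P4HA2 was the member that was lower in HT1080, by 1.997-fold (log2 difference -0.998, SE 0.10, interval -1.23 to -0.77, adjusted p = 2.93e-05, limma). Its second, dimmer probe had a difference of -0.24 with an adjusted p of 0.116 (limma, over all probes). P4HA1 did not pass, at 0.13 (SE 0.17, interval -0.26 to 0.51, adjusted p = 0.556, limma), and the interval leaves room for differences of either sign. SERPINH1 did not pass either, at 0.24 (SE 0.20, interval -0.20 to 0.68, adjusted p = 0.325, limma). Its difference was -0.11 without control MDA-MB-231 array 1 and 0.59 (adjusted p = 0.00844, limma) without array 2.

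**Figure D3:**
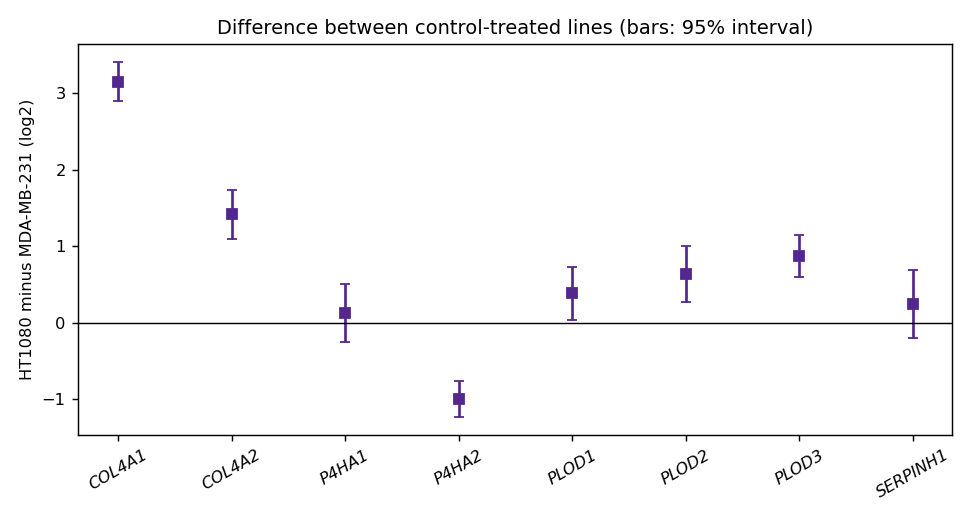
Difference in log2 intensity between control-treated HT1080 and control-treated MDA-MB-231 (vertical axis) for each measured gene (horizontal axis), from 2 arrays per group. Squares are differences and bars are 95% intervals of the limma fit. COL4A1 stands at 3.15 and COL4A2 at 1.42, P4HA2 at -0.998, and the intervals of P4HA1 and SERPINH1 include 0.

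In all, 4 members were called higher in HT1080 and 1 lower. Between these lines 53.7% of all genes were called, 26.2% higher and 27.5% lower. The median member difference was 0.51 beside -0.00 over all genes. Control arrays of the lines did not overlap in the higher direction for 38.7% of genes, the background for COL4A1, COL4A2, PLOD1, PLOD2 and PLOD3, and in the lower direction for 38.7%, the background for P4HA2.

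The members were set beside lists of other genes of the same pathway, of which 72 of 113 were tested. With knockdown, 1 of the 72 was called, the collagen receptor DDR1 in MDA-MB-231, where 0.995% of all genes were called. In HT1080 none of the 72 was called, where 0.307% of all genes were. DDR1, a receptor tyrosine kinase that collagen activates, read 7.85 and 7.52 in control MDA-MB-231, 8.53 and 8.35 with siVRK1, 8.05 and 8.01 in control HT1080 and 8.47 and 8.20 with siVRK1. DDR1 was higher on both siVRK1 arrays than on both controls in each line, as were 20.4% of all genes in MDA-MB-231 and 23.2% in HT1080. It rose by 0.75 (SE 0.14, adjusted p = 0.0434, limma) in MDA-MB-231 and differed by 0.30 in HT1080 (adjusted p = 0.518, limma). For DDR1 the difference between the lines was -0.45 (adjusted p = 0.800, limma). The call on DDR1 was lost in 7 of 8 fits that left out 1 array each, with adjusted p between 0.0413 and 0.184 over the 8, and also without the filter on dim probes, with a smaller background offset and with the 2 MDA-MB-231 groups fitted alone.

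Between the control lines 51 of the 72 were called, 21 higher and 30 lower in HT1080, where 53.7% of all genes were called, 26.2% higher and 27.5% lower. These shares are also the background for the count of each list given below. Of the genes named from these lists, 13 had a control mean below the filter level in one of the lines, so the sizes of their differences depend on the background: P3H3, LOXL3, SPARC, LAMA1 and DDR2 in MDA-MB-231, and P3H2, LOXL4, PXDN, COL5A1, COL9A2, ITGA1, CA12 and ADM in HT1080. With a smaller background offset, differences grew by more than 1.5 times for LOXL3 (1.96), LAMA1 (2.92), DDR2 (2.64), COL6A2 (1.33), PXDN (-3.03), COL9A2 (-3.05), ITGA1 (-0.76) and CA12 (-3.38), and ADM reached -6.02. Other settings made some differences smaller. At the smallest, LAMB3 was 1.21, COL8A1 -1.20 and CA12 -1.51, beside 2.05, -1.90 and -2.19 in the main fit. The member P4HA2 was then -0.62, beside -0.998. Among the other modifying and folding genes of the endoplasmic reticulum, 7 of 12 tested were higher in HT1080 and 1 was lower, with a median of 0.48. The higher ones included P3H3, of the prolyl 3-hydroxylase family, at 2.57 (adjusted p = 9.98e-08, limma), its relative P3H4 at 2.31 (adjusted p = 8.64e-08, limma) and CRTAP, a partner of prolyl 3-hydroxylase, at 1.36 (adjusted p = 0.000235, limma). P3H2, a prolyl 3-hydroxylase that acts on collagen IV, was the 1 that was lower, at -3.85 (SE 0.11, adjusted p = 1.92e-09, limma). Its control arrays averaged 9.53 (MDA-MB-231) and 5.67 (HT1080), the latter below the filter level. Thus COL4A1 and COL4A2 read higher in HT1080, and P3H2 and P4HA2 lower, while PLOD2 and PLOD3 read higher. The limits given above for P4HA2 and PLOD2 apply here too. Collagen IV chains other than COL4A1 and COL4A2 were tested through COL4A5 alone, with a difference of 0.18 (adjusted p = 0.170, limma).

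Other basement membrane genes gave 4 higher and 2 lower of 8 tested, with a median of 0.58, where 26.2% of all genes were called higher and 27.5% lower. SPARC, a collagen-binding matricellular protein, was 4.71 higher in HT1080 (adjusted p = 7.17e-10, limma), with MDA-MB-231 control arrays at background (mean 5.66). The laminin chains LAMB3 and LAMA1 were higher by 2.05 and 1.86, and LAMA5 and LAMB2 had differences of -1.74 and -0.57. All of these were called, and LAMB2 lost its call without HT1080 control array 2 (adjusted p = 0.0691, limma).

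Of 6 tested collagen receptors, DDR2, ITGA10 and ITGA2 were higher in HT1080, by 1.58, 1.14 and 1.002. ITGA1 was lower, at -0.37 (adjusted p = 0.0487, limma), a call that held in 3 of 8 fits with 1 array left out. Of 14 other collagens tested, 4 were higher and 7 lower. For both lists the share over all genes was 26.2% called higher and 27.5% lower. COL6A3, COL6A2 and COL6A1, chains of the microfibrillar collagen VI, were higher by 2.88, 0.87 and 0.41, and COL5A1, a chain of fibrillar collagen V, had a difference of -3.21 (adjusted p = 5.38e-08, limma), with COL8A1 at -1.90 and COL9A2 at -1.82. The COL6A1 call was lost without MDA-MB-231 control array 2, HT1080 control array 1 or HT1080 control array 2.

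Between the control lines 53.7% of all genes were called, 26.2% higher and 27.5% lower. Genes of collagen export from the endoplasmic reticulum had 6 of 11 tested (54.5%) lower and none higher in HT1080, with a median of -0.43. They included SEC24D at -1.07 (adjusted p = 0.00124, limma), SAR1A at -0.95 (adjusted p = 0.00415, limma) and SEC23B at -0.79 (adjusted p = 0.0195, limma), parts of the COPII vesicle coat machinery. SEC23B lost its call without MDA-MB-231 control array 2, where the difference was -0.35, and without HT1080 control array 1 or 2. Of 9 processing and crosslinking genes, 3 were higher and 5 lower. The lysyl oxidase LOX, which starts collagen crosslinks, was 1.77 higher and LOXL3 1.24 higher, as was PCOLCE2, an enhancer of procollagen processing, by 0.93. In the opposite direction, LOXL4 stood at -2.85, the procollagen protease BMP1 at -1.09 and PXDN, the peroxidase that makes the sulfilimine crosslinks of collagen IV, at -1.92 (adjusted p = 1.71e-05, limma).

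P4HA1, P4HA2, PLOD1 and PLOD2 belong to the class of genes known to be induced by hypoxia. Of other genes in that class, 8 of 11 tested were lower and none higher in HT1080, with a median of -0.68. Over all genes 27.5% were called lower and 26.2% higher. ADM stood at -4.77 (adjusted p = 8.47e-10, limma), CA12 at -2.19 and NDRG1 at -1.25. With knockdown none of the 11 was called in either line, where 0.995% (MDA-MB-231) and 0.307% (HT1080) of all genes were. The medians were -0.03 in MDA-MB-231, with values from -0.373 to 0.585, and 0.06 in HT1080, with values from -0.19 to 0.48. P4HA1 changed by 0.91 and -0.53. Any part of the hypoxia response in these changes was not tested.

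**Figure D4:**
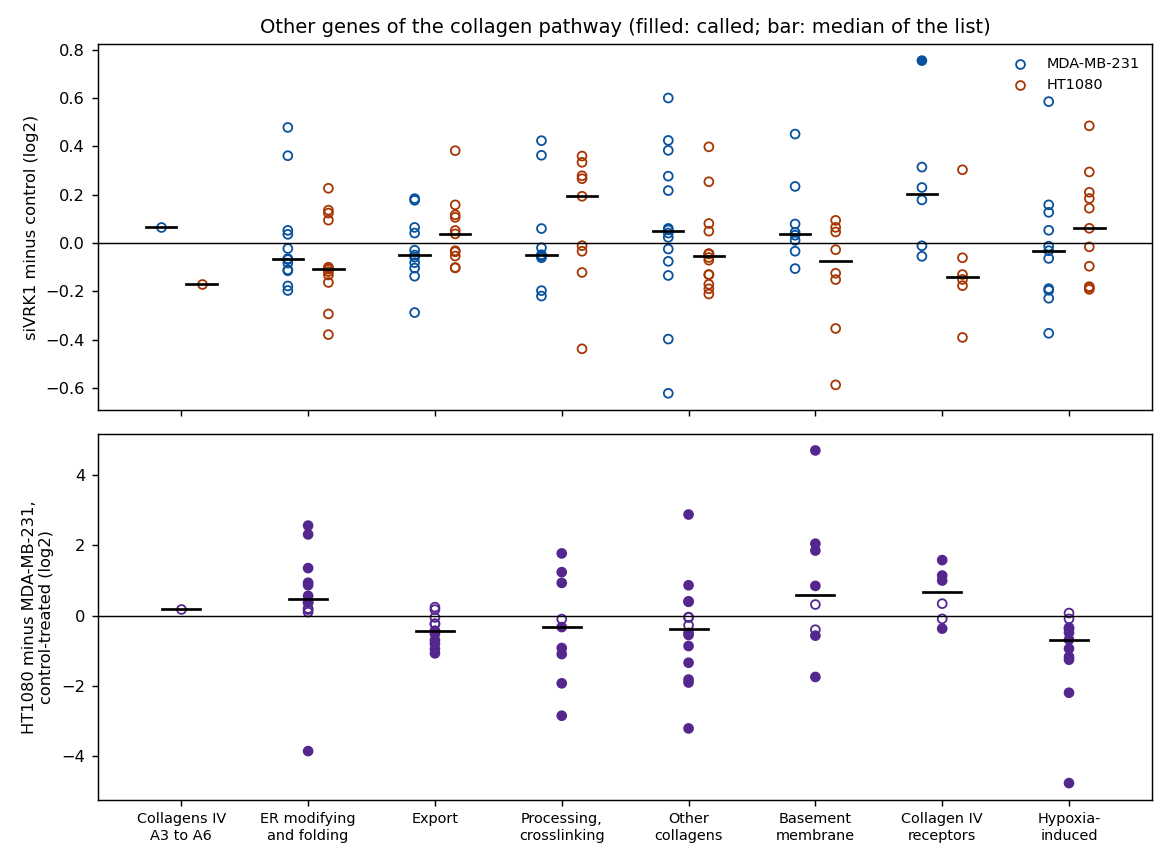
Log2 differences of the 72 other pathway genes tested (vertical axes) by list (horizontal axis). The list labelled collagen IV receptors is that of collagen receptors in the text. The upper panel shows siVRK1 minus control in MDA-MB-231 (blue) and HT1080 (orange), the lower panel control-treated HT1080 minus MDA-MB-231; each circle is a gene, filled where called at an adjusted p under 0.05, and bars are list medians. One circle is filled in the upper panel (DDR1, 0.75) and 51 in the lower.

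The genes with profiles nearest to those of P4HA1 and COL4A1 over the 8 arrays were found by the root mean square difference of values, each gene first centred on its own mean. The nearest genes lie below the median distance by selection, so that median gives only the scale. For P4HA1 they were HPGD, SCG2 and TNFSF18, at 0.20, 0.21 and 0.23 log2, beside a median of 0.55 over all genes. Between the control lines these genes stood at -0.26, -0.22 and -0.37, beside 0.13 for P4HA1. Their siVRK1 differences were 0.70, 0.51 and 0.66 in MDA-MB-231 and -0.02, -0.13 and -0.06 in HT1080, so none had a lower value in HT1080 as large as that of P4HA1. For COL4A1 the nearest genes were COL6A3, COBLL1 and ACTA2, at 0.28, 0.29 and 0.29, beside a median of 1.39. These had siVRK1 differences of 0.60, 0.28 and 0.14 in MDA-MB-231, beside 0.88 for COL4A1, and of -0.17, 0.20 and -0.02 in HT1080. Between the control lines they stood at 2.88, 2.50 and 2.99, beside 3.15 for COL4A1.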

How the data were processed

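Total RNA was measured on 8 Illumina HumanRef-8 arrays. The deposited values are log2 intensities, per the file headers and the values themselves (5.37 to 14.5). GenomeStudio is named in the submitters' processing notes. The normalization method is not given in the sources used here, and the arrays share a distribution to within 0.00267 log2 at every quantile, with a median of 5.93, so the values had been made alike between arrays before deposit. That step makes differences relative to the array as a whole and fixes the median change near 0. No detection p-values or bead counts were used, and the number of arrays limits the precision.

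Of 24526 probes, 21834 had 1 gene symbol in the platform annotation, 0 had several and 2692 had none. Probes were kept where the highest group mean reached the median over probes (6.08 log2), leaving 12263, and the probe with the highest mean stood for each gene, giving 9451 genes. Group means were fitted over all 8 arrays with limma 3.58.1 in R 4.3.3 (residual df 4, prior df 5.86), and p-values were adjusted by Benjamini-Hochberg over all genes. Unless stated otherwise, values are log2 intensities, and differences are log2 differences. Levels of different probes were not compared. The method was tested on simulated data.

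The members and the gene lists were chosen with earlier results of these data known, so baseline p-values of the members are not independent support. For the lists, called genes with the greatest differences were named, up to 3 in each direction, and for the 2 members with the nearest-profile search, the 3 nearest genes. Promoter sequences came from RefSeq (GRCh38.p14). Alternatives changed the filter, the probe rule, normalization, background, variance model, pairing and arrays included.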

Additional observations from a re-analysis of the deposited data

Results flagged for a closer look

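Some genes had both siVRK1 arrays above both controls in one line and both below in the other. Of 81 genes checked, 6 did so, beside 4.99% of all genes tested. P4HA1 had a difference between the lines' changes of -1.44. It was in the fit over all genes, where no gene was called for this difference. Since P4HA1 was chosen for that difference in sign, nothing is read from its own p-value. The other 5 are genes of the pathway lists. COLGALT1, which adds galactose to hydroxylysine, had changes of 0.48 in MDA-MB-231 and -0.10 in HT1080, a difference of -0.58 (adjusted p = 0.568, limma). COL6A3 had 0.60 and -0.17, a difference of -0.77 (adjusted p = 0.757, limma), and COL18A1 had 0.38 and -0.04, a difference of -0.43 (adjusted p = 0.759, limma). KLHL12 had -0.10 and 0.12, a difference of 0.22 (adjusted p = 0.856, limma), and ADM had -0.19 and 0.29, a difference of 0.48 (adjusted p = 0.714, limma). None of these 5 differences passed the test.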

How the results depend on the processing

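Replicate numbers are shared between groups in the labels, but the labels do not say what a number marks, so the main fit did not take them as pairs. Deviations of same-numbered arrays correlated at 0.49 in MDA-MB-231 and at -0.05 in HT1080. In MDA-MB-231 same-numbered arrays thus shared part of their deviations, and the unpaired SEs and overlaps given for that line include this part. With the replicate number as a block, the genes called with knockdown went from 94 to 297 in MDA-MB-231 and from 29 to 66 in HT1080, and the genes with a difference between lines from 0 to 3. Under the same block the members called in MDA-MB-231 went from 2 to 3, as they did with an intensity trend, those called for the difference between lines went from 0 to 1, and the pathway genes called went from 1 to 5 in MDA-MB-231 and from 0 to 1 in HT1080. A smaller background offset of 16, chosen after seeing the data because the planned offset of 50 nearly put back the estimated background of 48.7 to 48.8, gave 26 genes, 1 member and 0 pathway genes called in MDA-MB-231 and 12 genes in HT1080. Fitting only the arrays of the groups compared, which leaves fewer degrees of freedom, gave 0 genes, 0 members and 0 pathway genes in MDA-MB-231, where VRK1 stood at -1.28 (adjusted p = 0.292, limma), and 84 genes and 1 pathway gene in HT1080. That setting was not run for the difference between lines, which uses all groups. Without the filter on dim probes 1 member was called in MDA-MB-231 and 1 pathway gene in HT1080, and with an intensity trend 2 pathway genes in MDA-MB-231. Leaving out 1 array at a time gave 10 to 107 genes, 0 to 1 members and 0 to 1 pathway genes in MDA-MB-231, 0 to 39 genes in HT1080 and 0 to 1 genes for the difference. VRK1 then ranged from -1.54 to -1.03 in MDA-MB-231 and from -1.35 to -1.29 in HT1080. The SERPINH1 baseline difference turned to -0.11 without MDA-MB-231 control array 1 and was 0.59 without array 2, and the other P4HA1 probe, at background, had a knockdown difference of -0.06 (-0.0553) in MDA-MB-231. Members called between control lines numbered 5 to 6 under the settings that kept every array of the groups compared, and 4 to 7 with 1 array left out. The causes of these changes were not tested.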

Other observations

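Values of a few pathway genes lay just outside the call with knockdown, and these were picked after their values were seen. In MDA-MB-231, LAMC1, the laminin gamma chain of most basement membranes, differed by 0.45 (SE 0.10, adjusted p = 0.0726, limma) and COLGALT1 by 0.48 (SE 0.11, adjusted p = 0.0774, limma). In HT1080, the laminin chain LAMA5 differed by -0.59 (SE 0.10, adjusted p = 0.0622, limma), beside 0.04 in MDA-MB-231, and the test of the difference between lines gave an adjusted p of 0.519 (limma).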
